A study of Mus musculus with 9 samples.

Results

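DC2.4 cells, a mouse cell line used as a model of dendritic cells, were compared between the groups that the labels name ZJDC and PBSDC, with 3 RNA-seq libraries in each. These are 6 of the 9 libraries of the series, and the third group, OMVSSDC, entered neither the scaling nor the fit. Genes with at least 10 counts in at least 3 of the 6 libraries were kept, which left 11389 of the 21959 genes in the table. All libraries were made from total RNA of the same line. The design text of the series speaks of an engineered vesicle preparation given to these cells and does not use the name ZJ. The labels record no dose, time, culture or day, and do not say what the letters ZJ stand for; the PBS in the other name is read only as a name. Nothing in the labels says that replicates were separate cultures, so the p-values measure only the spread between these libraries, which may be technical.

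Cells of this kind detect microbial molecules through Toll-like receptors and C-type lectins, and signal through NF-kB, MAP kinases and interferon regulatory factors. The target genes include chemokines and cytokines that recruit other leukocytes, and inhibitors that limit the same signal. DC2.4 was made from mouse bone marrow with vectors that carry a growth factor and the oncogenes Myc and Raf, and Myc is a well-known driver of ribosome production, nucleotide synthesis and cell growth. It is 1 immortalised line, and a result in it is not a result in several animals.

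The libraries held 12784931 to 18388959 counts. The first principal component of the log2 CPM values (a gene's count over the scaled size of its library) held 84.96% of the variance and separated the groups, and the second held 4.44%. Counts of mitochondrially encoded genes made up 6.89 to 7.84% of the PBSDC libraries and 4.60 to 5.72% of the ZJDC libraries; their part in the results below was not tested. Of 18 dendritic cell markers only 7 passed the count filter, among them Irf8, Sirpa and Cd74, and 14 of 15 monocyte and macrophage markers passed. The summed level of the dendritic list was 1985 to 2045 CPM in PBSDC and 2458 to 2478 CPM in ZJDC, and that of the macrophage list was 5545 to 5708 and 5501 to 5618 CPM. Of the 7 dendritic markers tested, 3 were called higher by the rule below (42.9%, against 35.3% of all genes tested) and 0 lower. Their median log2 fold change was 0.11. The cells therefore carry macrophage markers beside the few dendritic ones, and they are called here by the name of the line. Marker lists of other cell types were low in both groups. For T cells the sum was 8.47 to 10.5 CPM in PBSDC and 16.2 to 17.4 CPM in ZJDC, with Cd3e, Cd3g, Cd8a and Cd8b1 at 0 in every library. For endothelial cells it was 20.4 to 21.7 CPM in PBSDC and 8.76 to 9.57 CPM in ZJDC. Summed levels of the epithelial, natural killer, granulocyte, erythroid and hepatocyte lists did not exceed 3.40 CPM in any library.

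A gene was called when its adjusted p, from edgeR's quasi-likelihood test over all genes tested, was under 0.05. By that rule 8004 genes differed (70.3%), of which 4025 were higher in ZJDC (35.3%) and 3979 lower (34.9%). The median log2 fold change over all genes tested was 0.01, which the scaling sets near 0, and the balance of the directions moves with the scaling: by library size alone 4475 genes were higher and 3557 lower. Of all genes tested, 1035 genes rose over 2-fold (9.09%) and 454 fell over 2-fold (3.99%). For 8259 genes (72.5%) the ZJDC and PBSDC libraries did not overlap, which makes the separation of single genes a common feature of this comparison. In the paragraphs that follow, the members of a gene list that rose or fell are to be read against those shares. Fold changes are log2 values of ZJDC over PBSDC, given where shown as ± the standard error, with n = 3 libraries a group.

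The genes with the largest rises came from unrelated families. Vnn3, a member of the pantetheinase family, had 0.289, 0.534 and 0.498 CPM in PBSDC and 10.3, 10.4 and 9.25 CPM in ZJDC. The groups were far apart, and the log2 fold change was 4.50 ± 0.239. With 5, 8 and 7 counts in PBSDC, Vnn3 passed the filter of 10 counts only through its ZJDC libraries. Nos1, the neuronal form of nitric oxide synthase, had 1.15, 0.868 and 1.28 CPM in PBSDC and 17.9, 18.5 and 16.9 CPM in ZJDC (adjusted p = 2.86e-17). Krt23, a keratin, rose by 4.05, and Cox6a2, the muscle form of a cytochrome c oxidase subunit, by 3.49, while most keratins and muscle genes on the marker lists did not pass the count filter or the test. Tbc1d9, whose protein carries a domain that acts on Rab GTPases, was already expressed in the control group, with 14.9, 13.4 and 13.7 CPM in PBSDC and 139, 145 and 135 CPM in ZJDC. Its log2 fold change was 3.32 ± 0.066 (adjusted p = 3.39e-24). The ferroxidase ceruloplasmin (Cp) rose by 2.82, the poly(A) polymerase Tent5c by 2.96, the secreted Angptl6 by 3.30, the teneurin Tenm4 by 3.55, Fam171b by 3.71 and Garin1a by 3.51.

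Below the level of 5 CPM set for those genes, 3 further genes were picked out after their values were seen. Sprr2d, a small proline-rich protein of the epidermal barrier, had 0 counts in all PBSDC libraries and 55, 40 and 68 counts in ZJDC, at least 52.3-fold higher when 3 counts over the PBSDC group are taken as its limit. Skint7 was at 0 in PBSDC and at 31, 11 and 23 counts in ZJDC, at least 20.9-fold higher by the same limit. Inhba, the subunit from which activin A is built, was counted 3, 3 and 2 times in PBSDC and 128, 70 and 90 times in ZJDC (log2 fold change 4.996 ± 0.352). These genes went from none or a few reads to a low but countable level in ZJDC. Since the filter asked for at least 10 counts in 3 libraries, they were tested only because all 3 ZJDC libraries had that many. That all 3 agree was thus fixed by the filter. Sprr2d belongs to a family of close copies, and the handling of reads shared between copies is not stated.

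Of the genes with the largest falls, Clec12a, an inhibitory C-type lectin, had 77.01, 77.6 and 81.1 CPM in PBSDC and 15.99, 14.9 and 13.2 CPM in ZJDC. Every ZJDC library was under every PBSDC library, a log2 difference of -2.42 ± 0.076 (adjusted p = 5.85e-20). Clec4a2, another inhibitory lectin, fell by 2.98 and the Fc receptor-like Fcrls fell by 2.69 on the log2 scale. Tgfbi, a secreted matrix protein, had 55.8, 59.7 and 53.1 CPM in PBSDC and 6.77, 7.52 and 7.36 CPM in ZJDC (log2 fold change -2.97 ± 0.090, adjusted p = 2.83e-20). Fgd2, an activator of the GTPase Cdc42, had 35.04, 35.7 and 36.6 CPM in PBSDC and 4.27, 3.91 and 5.05 CPM in ZJDC (adjusted p = 1.17e-18). Hsd11b1, the enzyme that regenerates active glucocorticoid, fell by 2.80. The transcription factor Maf, which acts in tissue macrophages, had 179.8, 174 and 202 CPM in PBSDC and 42.6, 42.2 and 39.8 CPM in ZJDC (log2 fold change -2.16 ± 0.060, adjusted p = 6.30e-21). Aif1, known as the microglial antigen Iba1, fell by 2.39, the cytokine Ltb fell by 1.99, Ank2 fell by 2.79 and Cd300lg fell by 2.33. In bulk libraries such as these, fewer cells that express a gene and less RNA per cell cannot be told apart. The plot of the genes with the largest differences gives each library's level; the rule that chose them required that the groups do not overlap.

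**Figure D1:**
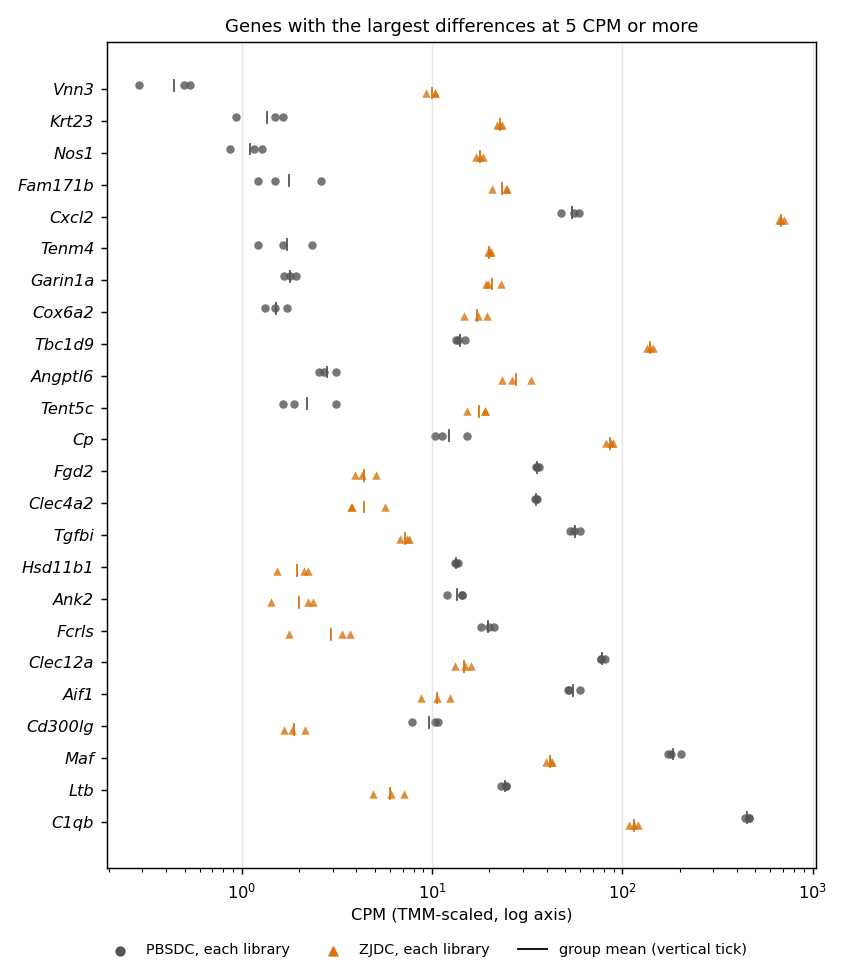
Level of the 24 genes with the largest log2 fold changes in either direction (12 each, mean of at least 5 CPM), on a logarithmic axis in CPM after scaling. Grey circles are the 3 PBSDC libraries, orange triangles the 3 ZJDC libraries and vertical ticks the group means; the groups do not overlap for any gene drawn, as the choice of genes required.

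Complement C1q, the recognition molecule of the classical pathway, is made from 3 chains, and all of them fell. C1qb had 462, 440.2 and 461 CPM in PBSDC and 121, 115 and 109 CPM in ZJDC (log2 fold change -1.98 ± 0.047, adjusted p = 1.17e-22). C1qa fell by 1.67 and C1qc fell by 1.88 on the log2 scale, both chosen after their values were seen, as was C3, the central complement component, which rose by 1.10. In the whole list of complement and coagulation genes 4 of 18 members tested rose and 6 fell, both shares under or near those of all genes, with a median of -0.002. Procr, the endothelial protein C receptor of the anticoagulant pathway, had 57.1, 59.3 and 54.9 CPM in PBSDC and 302, 307 and 290.3 CPM in ZJDC. It had the smallest adjusted p of the list, at 2.39 ± 0.050 on the log2 scale (adjusted p = 7.78e-24).

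Among chemokines, the small secreted proteins that attract leukocytes, 10 of 14 genes tested rose and 4 fell, 5 and 2 of them over 2-fold, with a median log2 fold change of 0.50. Cxcl2, which attracts neutrophils, had 55.9, 47.6 and 58.8 CPM in PBSDC and 679, 664 and 705 CPM in ZJDC. The ZJDC libraries lay within a narrow band more than 10 times above the control libraries, a log2 difference of 3.66 ± 0.059 (adjusted p = 7.48e-23). Ccl3 and Ccl4, which attract macrophages and T cells, rose by 1.77 and 1.23. The list was not uniform: Ccl9 had 521, 499 and 517 CPM in PBSDC and 271, 273 and 268 CPM in ZJDC and fell by 0.92 (adjusted p = 5.68e-17), Ccl12 fell by 1.46 and the platelet factor Pf4 fell by 1.01. Ccl3, Ccl4, Ccl12 and Pf4 were chosen after their values were seen.

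The 250 bases before the annotated start of Cxcl2 are shown because this gene had the largest change among the chemokines with NF-kB letters before their start. They lie at chr5:90903649-90903898 on the plus strand of GRCm38.p6 (RefSeq), and capitals mark the NF-kB letters searched here on either strand (GGG, any 3 bases, then TTCC). 3 matches were found, the first pair overlapping, and the match nearest the start ends 68 bases before it.
Cxcl2: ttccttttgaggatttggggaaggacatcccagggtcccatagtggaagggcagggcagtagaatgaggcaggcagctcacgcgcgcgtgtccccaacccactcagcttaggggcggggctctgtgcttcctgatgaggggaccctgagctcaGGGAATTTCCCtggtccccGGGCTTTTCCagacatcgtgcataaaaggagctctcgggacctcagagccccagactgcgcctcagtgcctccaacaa

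Among growth factors 12 of 16 genes tested rose and 2 fell, 8 and 2 of them over 2-fold, with a median of 0.85. Pdgfa, a chain of platelet-derived growth factor, had 3.52, 2.74 and 3.201 CPM in PBSDC and 18.4, 14.4 and 15.2 CPM in ZJDC (log2 fold change 2.34 ± 0.148, adjusted p = 1.30e-13). Osm, a cytokine of the interleukin-6 family, rose by 1.67, the stem cell factor Kitl by 1.16 and the stress-related Gdf15 by 1.57. Angptl4, an inhibitor of lipoprotein lipase, fell by 1.35, and insulin-like growth factor 1 (Igf1) fell by 1.15. Kitl, Gdf15 and Igf1 were chosen after their values were seen. In the transforming growth factor, bone morphogenetic protein and activin pathway 15 of 29 members rose and 7 fell, 4 and 2 over 2-fold (median 0.21). Beside the ligand subunit Inhba, the transcriptional inhibitor Id2 rose by 1.19, whereas its relative Id1 fell by 2.096 (chosen after its value was seen) and the receptor Tgfbr2 fell by 0.84.

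In the tumour necrosis factor superfamily 15 of 27 members rose and 4 fell, 8 and 3 of them over 2-fold, with a median of 0.63. The receptor Tnfrsf1b had 200.3, 209.6 and 219 CPM in PBSDC and 569, 583 and 613 CPM in ZJDC (log2 fold change 1.49 ± 0.044, adjusted p = 1.91e-20), and the adaptor Traf1 rose by 2.48. The ligands Tnfsf15 and Tnfsf9 rose by 2.48 and 1.60 (chosen after their values were seen), in contrast to the ligand Ltb described above. Of 21 members of the interleukin-1 family and the inflammasome 12 rose and 6 fell, 7 and 2 over 2-fold (median 0.30). Casp4, the sensor of cytosolic lipopolysaccharide, had 50.5, 43.02 and 46.4 CPM in PBSDC and 129, 123 and 118 CPM in ZJDC (log2 fold change 1.40 ± 0.060, adjusted p = 4.56e-17). The antagonist Il1rn rose by 2.05, and the interleukin-33 receptor Il1rl1 fell by 1.37.

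Receptors for chemokines and other attractants went mostly down: 12 of 20 fell and 5 rose, 5 and 2 of them over 2-fold, with a median of -0.46. C5ar1, the receptor for complement fragment C5a, had 537, 545 and 572 CPM in PBSDC and 312, 318 and 303 CPM in ZJDC. All 3 ZJDC libraries were lower (log2 fold change -0.83 ± 0.041, adjusted p = 9.56e-16). Fpr1, which senses formylated bacterial peptides, fell by 1.18. Ccrl2, a receptor that binds chemerin without signalling, rose by 2.53. Cytokine receptors moved in both directions, with 15 of 26 higher and 7 lower (median 0.25; 8 and 4 when a change of at least 1.2-fold was required). Il7r had 14.8, 15.9 and 18.3 CPM in PBSDC and 81.7, 73.8 and 72.4 CPM in ZJDC (log2 fold change 2.22 ± 0.080, adjusted p = 1.19e-18). Csf1r, the receptor through which macrophages receive their survival factor, had 1072, 1142 and 1097 CPM in PBSDC and 533, 544 and 554 CPM in ZJDC, a log2 fold change of -1.02 (adjusted p = 4.71e-18). Il15ra and Csf3r rose by 1.21 and 1.25, and Il6ra fell by 1.29; these were chosen after their values were seen.

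Fc receptors, C-type lectins and Siglecs, which bind antibodies and sugars, divided almost evenly, with 11 of 26 higher and 13 lower, yet their changes were large: 5 rose and 6 fell over 2-fold (median -0.16). Clec4e, the receptor Mincle for mycobacterial and cell-death glycolipids, had 372, 356 and 354 CPM in PBSDC and 1478, 1421 and 1334 CPM in ZJDC (log2 fold change 1.97 ± 0.043, adjusted p = 2.33e-23), a rise beside the falls of Clec12a and Clec4a2. Ly75, the endocytic receptor DEC-205 of dendritic cells, rose by 2.76, and Fcgr4 and Siglec1 fell, with log2 fold changes of -1.48 and -1.30; these were chosen after their values were seen. Paired and inhibitory receptors had 6 of 23 members higher and 10 lower, 2 and 5 over 2-fold (median 0.04). Lilrb4a, an inhibitory receptor, had 159, 157 and 153 CPM in PBSDC and 785, 745 and 762 CPM in ZJDC (log2 fold change 2.29 ± 0.042, adjusted p = 8.37e-25), and its near-identical neighbour Lilrb4b rose by 2.09; how reads were divided between the pair is uncertain. Trem2, a lipid-sensing receptor of macrophages, had 63.97, 68.5 and 65.6 CPM in PBSDC and 20.1, 22.1 and 25.4 CPM in ZJDC and fell by 1.55 (adjusted p = 1.15e-15). Its relatives Trem3 and Treml4 fell, with log2 fold changes of -1.91 and -2.67 (Lilrb4b, Trem3 and Treml4 were chosen after their values were seen).

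Scavenger receptors and genes for the uptake of dead cells had 8 of 24 members higher and 11 lower, 2 and 3 over 2-fold (median -0.09). Lrp1, a large endocytic receptor, had 439.6, 485 and 473 CPM in PBSDC and 134, 136 and 142 CPM in ZJDC (log2 fold change -1.76 ± 0.047, adjusted p = 1.25e-21). Cd68, a lysosomal glycoprotein of macrophages, rose by 0.83. The same divergence ran through the macrophage marker list, where 7 of 14 members tested fell, 5 over 2-fold, and 6 rose, and the ranges of the summed level given above overlapped. Lyz2, lysozyme, had 825, 839 and 811 CPM in PBSDC and 267, 264 and 272 CPM in ZJDC and fell by 1.62, and the phagocytic receptor kinase Mertk fell by 1.41. Adgre1, the antigen F4/80, rose by 0.75. The last 3 genes were chosen after their values were seen.

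**Figure D2:**
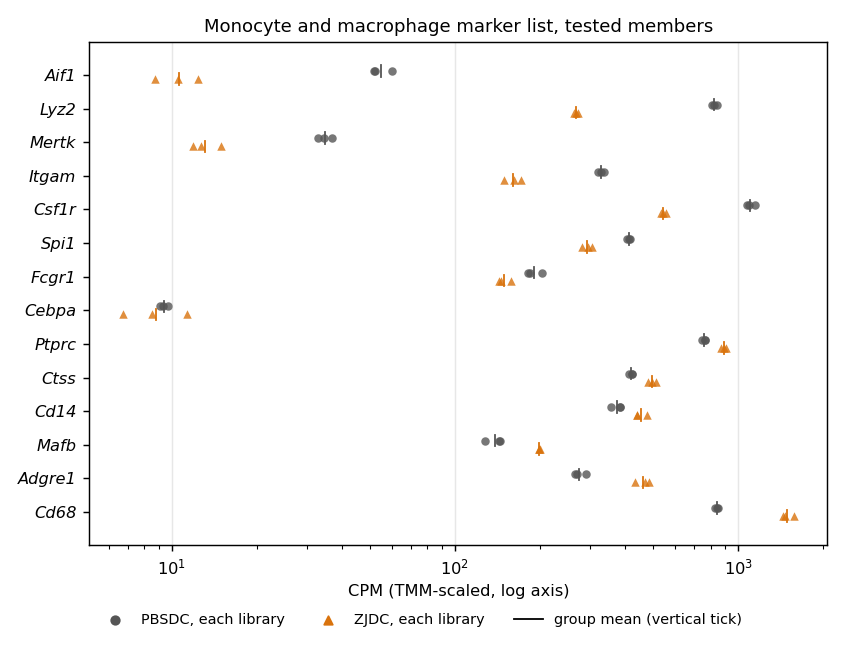
Level of the 14 monocyte and macrophage markers that passed the count filter, on a logarithmic axis in CPM after scaling, ordered by log2 fold change. Circles are PBSDC and triangles ZJDC libraries, with group means as ticks; from Aif1 to Fcgr1 the ZJDC libraries lie lower, from Ptprc to Cd68 they lie higher, and for Cebpa the groups overlap.

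Toll-like receptors and their adaptors had 15 of 33 members higher and 10 lower, 3 and 1 over 2-fold (median 0.13). Tlr8, an endosomal receptor for RNA, had 127, 134 and 139 CPM in PBSDC and 58.9, 58.03 and 56.9 CPM in ZJDC (adjusted p = 9.52e-17), a fall in all 3 ZJDC libraries. Ticam2, the adaptor that links TLR4 to the interferon branch, had 27.4, 25.3 and 24.5 CPM in PBSDC and 86.4, 78.8 and 70.2 CPM in ZJDC (log2 fold change 1.60 ± 0.077, adjusted p = 1.33e-15).

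Genes for adhesion and guidance were mostly higher. All 25 integrin and adhesion genes tested were called, 16 of them higher and 9 lower, 6 and 5 over 2-fold (median 0.39). Alcam, a ligand of the T cell molecule CD6, had 83.4, 75.2 and 66.7 CPM in PBSDC and 283, 277 and 272 CPM in ZJDC (log2 fold change 1.88 ± 0.059, adjusted p = 1.25e-17), Ninj1 rose by 1.66 and the tetraspanin Cd9 by 1.201. The integrin Itgam (CD11b) fell by 1.03 and Pecam1 fell by 1.84, the latter being most of the endothelial marker sum of PBSDC given above; Cd9 and Pecam1 were chosen after their values were seen. Semaphorins, plexins and ephrins had 11 of 20 members higher and 3 lower, 6 and 0 over 2-fold (median 0.63). The semaphorin receptor Plxnd1 had 185, 181 and 180.3 CPM in PBSDC and 791, 812 and 847 CPM in ZJDC. Its log2 fold change was 2.16 ± 0.042 (adjusted p = 2.07e-24), and Plxna1, at 185 to 193 CPM in the control libraries, rose by 1.52. The lower members included Sema6b, at -0.57, and without PBSDC replicate 2 only 1 member was called lower. Matrix proteases and their inhibitors had 9 of 17 members higher and 4 lower, 4 and 3 over 2-fold (median 0.32). The gelatinase Mmp9 had 129, 155 and 153 CPM in PBSDC and 62.2, 58.1 and 58.1 CPM in ZJDC and fell by 1.29 (adjusted p = 1.25e-14), the elastase Mmp12 fell by 1.11 (chosen after its value was seen), and the sheddase Adam8 rose by 0.69.

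**Figure D3:**
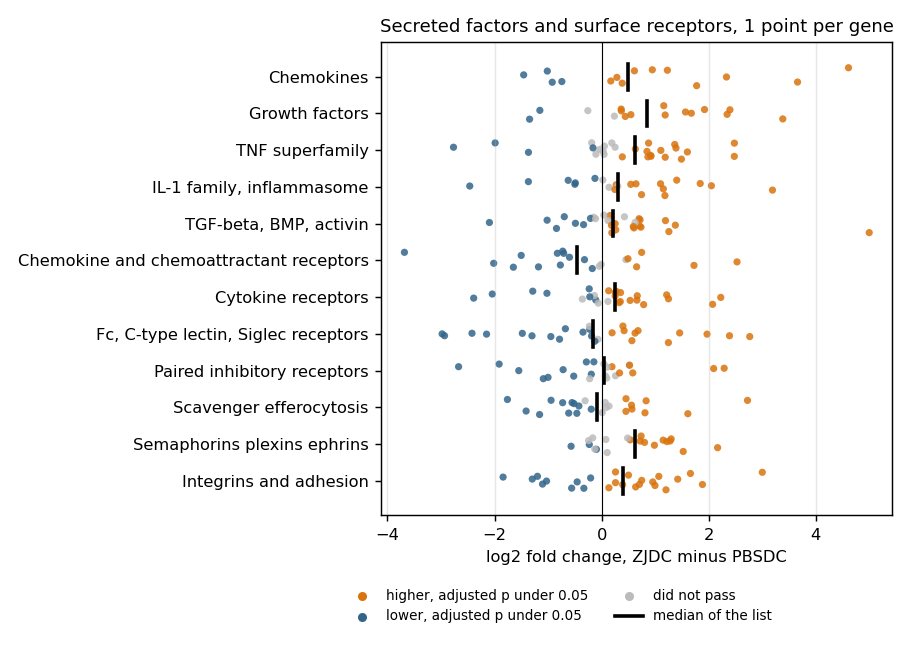
Log2 fold change (ZJDC minus PBSDC) of each tested member of 12 lists of secreted factors and surface receptors, 1 point per gene. Orange and blue points passed the test as higher or lower, grey points did not, and black bars are list medians, which lie between -0.46 (chemoattractant receptors) and 0.85 (growth factors).

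In the family of interferon regulatory, STAT and NF-kB factors 17 of 29 members rose and 2 fell, 3 and 0 over 2-fold, with a median of 0.28. Irf7, the factor that amplifies type I interferon, had 147, 144 and 166 CPM in PBSDC and 443, 423 and 439 CPM in ZJDC (log2 fold change 1.52 ± 0.049, adjusted p = 1.33e-19), the kinase Jak2 rose by 1.57 and the NF-kB subunit Relb by 1.17 (chosen after its value was seen). Irf5 was 1 of the 2 members that fell, at -0.79. When a change of at least 1.2-fold was required, 10 members of the list were called higher. Feedback genes of cytokine signalling had 18 of 31 members higher and 7 lower, 7 and 1 over 2-fold (median 0.35). Peli1, a ubiquitin ligase of Toll-like receptor signalling, had 59.8, 55.5 and 53.8 CPM in PBSDC and 253, 258 and 232 CPM in ZJDC (log2 fold change 2.13 ± 0.055, adjusted p = 5.92e-22), and Tnfaip2 rose by 1.44. The atypical inhibitor Nfkbid fell by 1.15, against rises of 1.43 for Nfkbie, 1.35 for Tnfaip3 (A20) and 0.93 for Nfkbia, inhibitors that NF-kB itself induces and which were chosen after their values were seen.

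Stretches before the starts of those 3 inhibitors are printed to set the NF-kB letters beside Cxcl2, with up to 30 bases on either side of the match and the match in capitals (GRCm38.p6). They lie at chr17:45555564-45555633 on the plus strand for Nfkbie, chr10:19015411-19015452 on the minus strand for Tnfaip3 and chr12:55492648-55492706 on the minus strand for Nfkbia.
Nfkbie: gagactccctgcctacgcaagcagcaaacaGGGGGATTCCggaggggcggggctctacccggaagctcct
Tnfaip3: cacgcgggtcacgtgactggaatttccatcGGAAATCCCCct
Nfkbia: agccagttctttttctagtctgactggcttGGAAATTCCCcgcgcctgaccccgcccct

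MAP kinase feedback genes, many of them phosphatases, had 18 of 35 members higher and 11 lower, yet 11 rose and 0 fell over 2-fold (median 0.11). Gadd45a, a stress-induced activator of p38 and JNK signalling, had 10.9, 10.4 and 11.3 CPM in PBSDC and 70.3, 76.4 and 76.8 CPM in ZJDC (log2 fold change 2.78 ± 0.079, adjusted p = 6.30e-21). The phosphatase Dusp4 rose by 1.06, and Dusp1, Gadd45b and the inhibitor Spred3 by 1.14, 1.33 and 2.13 (these chosen after their values were seen). Mapk14, the kinase p38 alpha itself, fell by 0.76. Kruppel-like factors, nuclear receptors and clock genes rose in 29 of 39 members and fell in 3, 9 and 0 over 2-fold, with a median of 0.50. Rora, a nuclear receptor of the circadian clock, had 9.99, 10.1 and 9.604 CPM in PBSDC and 39.7, 37.1 and 37.8 CPM in ZJDC (log2 fold change 1.95 ± 0.089, adjusted p = 1.56e-16), and the retinoic acid receptor Rarg rose by 2.40 while its relative Rara fell by 0.40. Rara's call was lost when a change of at least 1.2-fold was required (adjusted p = 0.0621). Ahr, Nr4a1, Bhlhe40 and Klf9 rose by 1.94, 1.52, 1.21 and 1.17 and were chosen after their values were seen. Regulators of messenger RNA decay went both ways, 12 of 32 higher and 15 lower (median -0.14), with Btg1 higher by 1.25 and Zfp36l2, which binds AU-rich elements, lower (-1.07).

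The integrated stress response, through which phosphorylation of eIF2 alpha favours the factor ATF4, had 18 of 30 members higher and 10 lower, 7 and 1 over 2-fold (median 0.28). Ddit3, the factor CHOP, had 11.7, 10.2 and 11.7 CPM in PBSDC and 46.9, 44.8 and 44.7 CPM in ZJDC (log2 fold change 2.02 ± 0.086, adjusted p = 3.69e-17). Ppp1r15a, which brings a phosphatase to eIF2 alpha, had 40.7, 37.9 and 44.5 CPM in PBSDC and 165, 163 and 158 CPM in ZJDC (log2 fold change 1.98 ± 0.058, adjusted p = 1.28e-20). Trib3, Nupr1, Pycr1 and Asns rose by 1.83, 1.60, 1.495 and 0.79 (chosen after their values were seen). Shmt2, the mitochondrial serine enzyme often grouped with ATF4 targets, fell by 0.76. Aminoacyl-tRNA synthetases, some of which are also ATF4 targets, had 7 of 23 members higher and 12 lower with 0 past 2-fold (median -0.15): Eprs rose by 0.54 and Farsa fell by 0.74. Chaperones and secretory genes of the endoplasmic reticulum fell in 23 of 41 and rose in 9 (median -0.19), and 12 were lower when a change of at least 1.2-fold was required. The stress sensor Ern1 rose by 1.39, the 1 member past 2-fold, and the chaperone Dnajb11 fell by 0.72.

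The CEBP-ATF letters TGATGNAAN, the composite element that ATF4 and CHOP can bind, were in 6 of 27 promoter windows of the integrated stress response list (22.2%). Over all genes tested the share was 2.30%. Ddit3, Ppp1r15a and Trib3, with larger rises, were not among the called members found with the letters before the start. A link between the letters and the rises was not tested. For 3 members that have them, the stretch around the letters is shown. These stretches lie on the minus strand at chr7:126625543-126625611 for Nupr1, chr11:120643813-120643881 for Pycr1 and chr6:7693210-7693262 for Asns (GRCm38.p6).
Nupr1: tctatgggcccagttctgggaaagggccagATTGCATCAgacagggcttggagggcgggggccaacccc
Pycr1: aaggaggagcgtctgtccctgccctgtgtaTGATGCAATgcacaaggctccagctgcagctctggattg
Asns: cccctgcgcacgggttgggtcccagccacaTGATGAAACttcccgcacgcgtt

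Genes that govern cell death rose in 18 of 35 members and fell in 10, 7 and 2 over 2-fold (median 0.25). Their log2 fold changes ran from -1.68 to 1.75. The survival genes named by rank were among those that rose, but whether survival and death genes differed as groups was not tested. Bcl2 had 35.1, 32.5 and 32.1 CPM in PBSDC and 86.8, 83.5 and 90.7 CPM in ZJDC (log2 fold change 1.39 ± 0.063, adjusted p = 1.30e-16). The inhibitor of apoptosis Birc3 rose by 1.04 and the caspase-8 regulator Cflar by 1.37. Bcl2a1d, 1 of several close copies among which reads may be divided, rose by 1.61; Cflar and Bcl2a1d were chosen after their values were seen. The pro-apoptotic Bid had 118, 135 and 126 CPM in PBSDC and 54.2, 54.8 and 49.5 CPM in ZJDC and fell by 1.26 (adjusted p = 3.23e-16).

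The machinery that makes and moves RNA was lower in most members tested. Ribosome biogenesis had 45 of 48 members lower and 2 higher, 11 and 1 over 2-fold, with a median log2 fold change of -0.77. Nop2, a methyltransferase of 28S ribosomal RNA, had 220.4, 233 and 231 CPM in PBSDC and 104, 100.9 and 100.6 CPM in ZJDC (log2 fold change -1.16 ± 0.047, adjusted p = 1.02e-17). Mybbp1a, a nucleolar regulator, had 583, 616 and 611 CPM in PBSDC and 277, 276 and 282 CPM in ZJDC (log2 fold change -1.12 ± 0.040, adjusted p = 1.24e-18). Nucleolin (Ncl), Bop1 and Nolc1 fell, with log2 fold changes of -1.34, -1.196 and -1.14 (chosen after their values were seen). Mxd1, which competes with Myc for its partner Max, was 1 of the 2 members that rose and had 20.7, 17.1 and 22.6 CPM in PBSDC and 62.3, 63.6 and 66.3 CPM in ZJDC (log2 fold change 1.67 ± 0.081, adjusted p = 7.23e-16).

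E-box letters (CACGTG), which Myc and Mxd1 with Max are known to bind, were in 10 of the 41 promoter windows found for this list. That was 24.4%, against 10.3% of the windows of all genes tested. Ion channels, of which more rose than fell, had the same share as this list. A link between the letters and the changes was not tested. Genes of a single chromosome were left out when stretches were chosen. Among the other called members of the ribosome biogenesis list, Nop2 was the only one with the letters wholly before its start. Its stretch lies at chr6:125131793-125131858 on the plus strand of GRCm38.p6.
Nop2: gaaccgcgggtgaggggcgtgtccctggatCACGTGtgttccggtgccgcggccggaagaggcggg

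Splicing factors were lower in 46 of 55 members and higher in 6, 7 and 0 over 2-fold (median -0.56). Sf3b3, a subunit that helps recognise the branch point, had 367, 401 and 373 CPM in PBSDC and 162, 171 and 160.4 CPM in ZJDC (log2 fold change -1.21 ± 0.046, adjusted p = 2.99e-18), Srsf1 fell by 1.08 and Hnrnpa2b1 fell by 1.01 (the last chosen after its value was seen). Luc7l2 rose by 0.43. Nuclear pore and transport genes were lower in 47 of 51 and higher in 2, 3 and 0 over 2-fold (median -0.51). The import adaptor Kpna2 had 279, 287 and 268 CPM in PBSDC and 126, 131 and 134 CPM in ZJDC (log2 fold change -1.09 ± 0.046, adjusted p = 2.64e-17), the pore component Nup85 fell by 1.22 and Ranbp1 fell by 1.09 (chosen after its value was seen), and Kpna4 rose by 0.46. Translation factors fell in 28 of 45 and rose in 7 (median -0.34). The initiation factor subunits Eif3l and Eif3b fell, with log2 fold changes of -1.03 and -0.97, and Eef2k, the kinase that inhibits elongation, rose by 1.34.

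Mitochondrial ribosomal proteins were lower in 35 of 54 and higher in 4 (median -0.36), with log2 fold changes of -0.84 for Mrpl3 and -1.12 for Mrpl18 and a rise of 0.48 for Mrpl24. Without ZJDC replicate 2 only 2 of these members were called higher. Constitutive proteasome genes fell in 32 of 39 and rose in 4, with 0 past 2-fold (median -0.37); 21 were lower when a change of at least 1.2-fold was required. The activator Psme3 had 364, 350.4 and 355 CPM in PBSDC and 192, 174 and 179 CPM in ZJDC and fell by 0.97 (adjusted p = 2.12e-16), but the lid subunit Psmd8 rose by 0.75. The chaperonin, prefoldin and tubulin list had 29 of 35 lower and 0 higher, 4 of them over 2-fold (median -0.48); without PBSDC replicate 2, 1 member was called higher. Tuba1b had 203, 209.8 and 215 CPM in PBSDC and 77.8, 75.8 and 82.4 CPM in ZJDC (log2 fold change -1.41 ± 0.050, adjusted p = 7.74e-19), Tuba4a fell by 1.39, and the microtubule regulator Stmn1 and Tubb4b fell, with log2 fold changes of -1.40 and -1.12 (these chosen after their values were seen). Tubulin genes are alike in sequence, so reads may have been divided among them.

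Chromatin modifiers fell in 35 of 57 and rose in 10, 4 and 3 over 2-fold (median -0.27). Kdm7a, a histone demethylase, had 68.4, 62.7 and 59.9 CPM in PBSDC and 229, 234 and 214 CPM in ZJDC (log2 fold change 1.82 ± 0.055, adjusted p = 2.59e-20), and the demethylases Kdm5b and Kdm6b rose by 1.54 and 1.44. Lamin B1 (Lmnb1), a part of the nuclear lamina, had 238, 237 and 247 CPM in PBSDC and 99.1, 94.4 and 94.8 CPM in ZJDC (log2 fold change -1.32 ± 0.047, adjusted p = 7.42e-19), and Hmgb2 fell by 1.16; Kdm5b, Kdm6b and Hmgb2 were chosen after their values were seen. DNA repair genes fell in 32 of 55 and rose in 6, with 0 past 2-fold (median -0.29); 21 were lower when a change of at least 1.2-fold was required. The ligase Lig1 and the exonuclease Exo1 fell, with log2 fold changes of -0.78 and -0.98, and the mismatch repair gene Msh3 rose by 0.49.

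**Figure D4:**
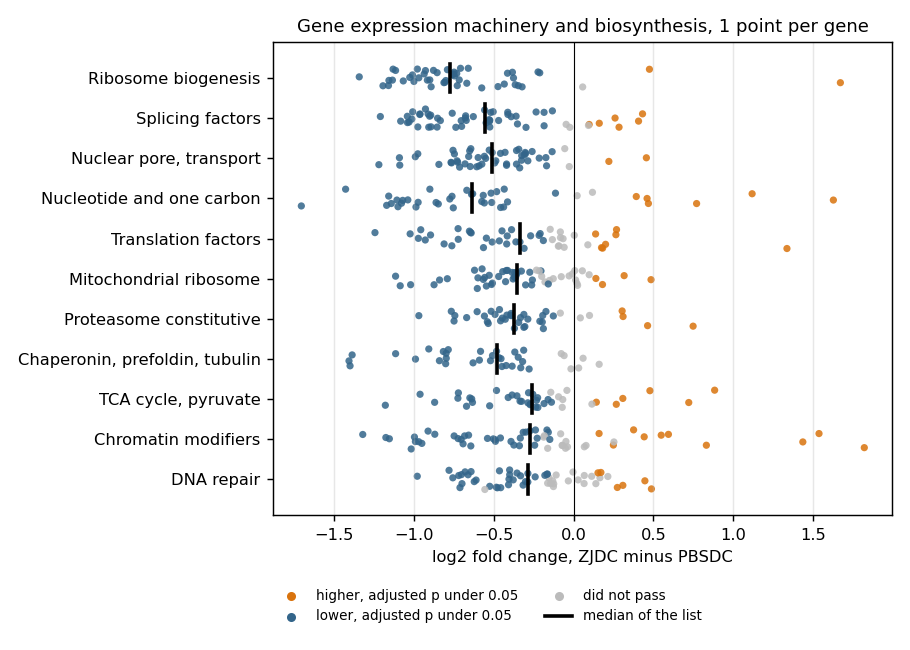
Log2 fold change (ZJDC minus PBSDC) of each tested member of 11 lists of gene expression machinery and biosynthesis, 1 point per gene. Blue points passed as lower, orange as higher, grey did not pass; every median, drawn as a black bar, is below 0, from -0.77 for ribosome biogenesis to -0.26 for the tricarboxylic acid cycle.

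Nucleotide and one-carbon metabolism, which supplies the building blocks of RNA and DNA, had 32 of 40 members lower and 6 higher, 10 and 2 over 2-fold (median -0.64). Rrm2, the regulated subunit of ribonucleotide reductase, had 217, 237 and 222 CPM in PBSDC and 68.3, 67.3 and 71.1 CPM in ZJDC (log2 fold change -1.71 ± 0.051, adjusted p = 1.63e-20). Atic, which completes purine synthesis, had 302, 317 and 327 CPM in PBSDC and 147, 143 and 148 CPM in ZJDC (log2 fold change -1.11 ± 0.045, adjusted p = 1.21e-17). Earlier steps of the same pathways, Ppat and Gart for purines and Cad for pyrimidines, fell, with log2 fold changes of -1.17, -1.07 and -1.14, and Mthfd1 of the folate cycle fell by 1.10 (chosen after their values were seen). Upp1, which breaks uridine down, rose by 1.63.

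The tricarboxylic acid cycle and pyruvate genes fell in 28 of 40 and rose in 6 (median -0.26), and 13 were lower when a change of at least 1.2-fold was required. Me2, the mitochondrial malic enzyme, had 137, 136 and 143 CPM in PBSDC and 62.3, 60.02 and 60.8 CPM in ZJDC and fell by 1.18 (adjusted p = 6.34e-17), and Idh3a fell by 0.87, while the cytosolic malic enzyme Me1 rose by 0.72. Of 38 genes of glucose, hexosamine and glycogen metabolism 20 fell and 11 rose (median -0.14). The glycolytic enzymes Tpi1, Pfkl and Ldha fell, with log2 fold changes of -0.92, -1.15 and -1.05 (Pfkl and Ldha chosen after their values were seen), and the hexokinase Hk3 had 55.4, 59.7 and 60.05 CPM in PBSDC and 143, 155 and 170.0 CPM in ZJDC and rose by 1.42 (adjusted p = 1.42e-16). Fatty acid and lipid storage genes were divided, 16 of 41 higher and 19 lower, 5 and 2 over 2-fold (median -0.18). Lpl, lipoprotein lipase, had 763, 791 and 812 CPM in PBSDC and 245, 237 and 236 CPM in ZJDC (log2 fold change -1.72 ± 0.041, adjusted p = 1.27e-22), fatty acid synthase (Fasn) fell by 1.08 (chosen after its value was seen), and Hilpda, a lipid droplet protein that inhibits lipolysis, rose by 2.03.

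Arginine, polyamine and nitric oxide genes had 12 of 25 members higher and 7 lower, 5 and 2 over 2-fold (median 0.17). Slc7a2, a transporter of arginine, had 29.4, 27.9 and 28.1 CPM in PBSDC and 141, 142 and 125 CPM in ZJDC (log2 fold change 2.25 ± 0.064, adjusted p = 6.30e-21). Sat1, which breaks polyamines down, rose by 1.51, whereas Amd1 and Srm of polyamine synthesis fell, with log2 fold changes of -1.196 and -1.08 (Srm chosen after its value was seen). Eicosanoid and phospholipase genes had 11 of 26 members higher and 8 lower, 6 and 5 over 2-fold (median 0.13). The prostaglandin D synthase Hpgds rose by 1.69, Pld3 by 1.496 and the prostaglandin E synthase Ptges by 1.501. Of the prostaglandin E2 receptors, Ptger2 rose by 2.32 and Ptger4 fell by 1.14 (Ptges, Ptger2 and Ptger4 chosen after their values were seen), and the leukotriene receptor Cysltr1 fell by 1.39. Genes of iron, copper and zinc had 15 of 33 members higher and 13 lower, 4 and 1 over 2-fold (median 0.07). Tfrc, the transferrin receptor for iron uptake, had 189, 193 and 196 CPM in PBSDC and 53.1, 58.9 and 59.2 CPM in ZJDC (log2 fold change -1.76 ± 0.053, adjusted p = 2.45e-20). Ferroportin (Slc40a1), the iron exporter, and the ferritin chain Ftl1 rose by 1.84 and 1.07 (chosen after their values were seen), beside the ferroxidase Cp.

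**Figure D5:**
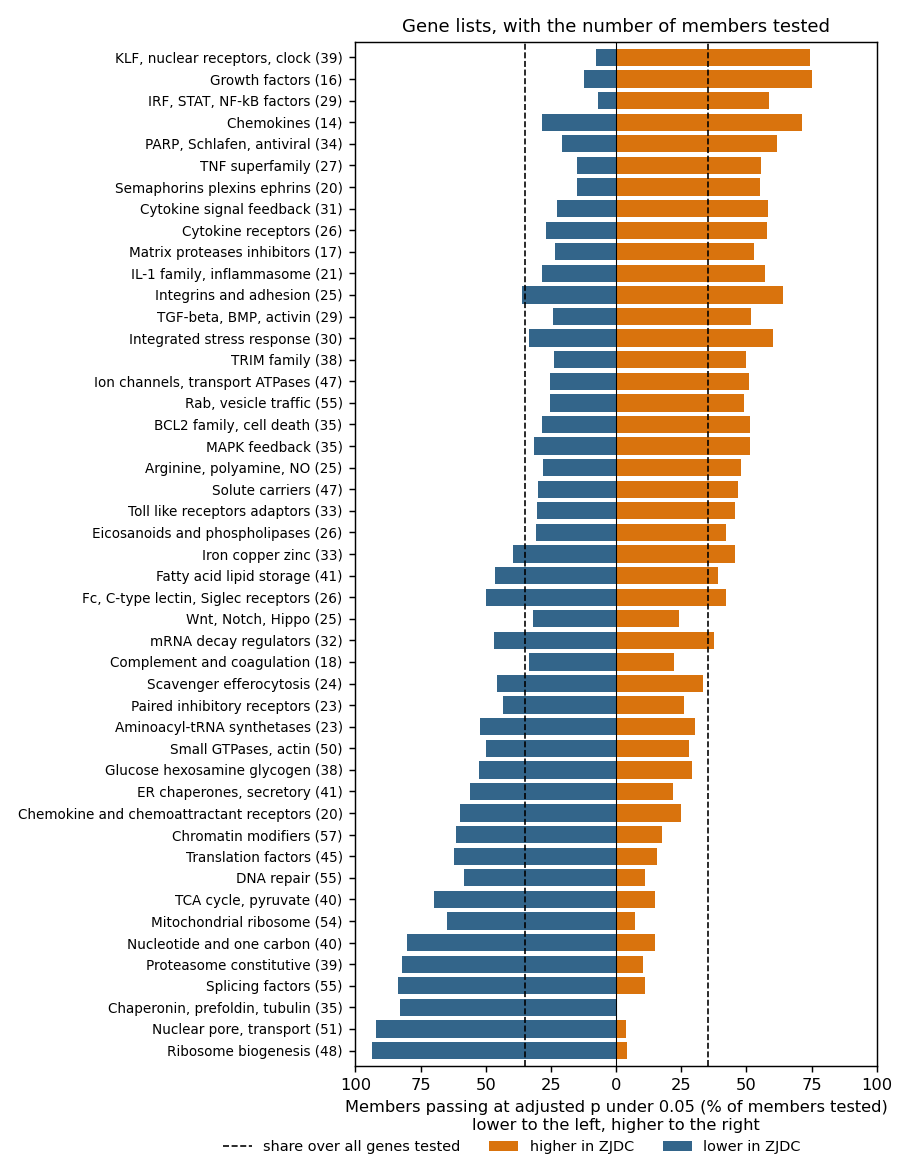
Share of the tested members of each of the 47 gene lists that passed as higher (orange, to the right) or lower (blue, to the left) in ZJDC, in percent, with the number tested in brackets. Dashed lines are the shares over all genes tested, 35.3% higher and 34.9% lower; ribosome biogenesis, the nuclear pore, tubulins and chaperonins and splicing factors stand at the lower end of the order by the difference of the shares.

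Promoter letters were counted in RefSeq windows that run from 250 bases before to 50 bases after the start, which 9124 of the 11389 genes had, for 8 motifs chosen after the results were known. NF-kB letters were in 6.27% of the windows of genes tested (5.56% of all 32851 windows), in 8.42% for genes higher over 2-fold and 6.96% for genes lower over 2-fold. The lists with the highest shares were the chemokines with 3 of 9 windows (among them Cxcl2, which rose, and Ccl9, which fell), the paired inhibitory receptors with 5 of 17 (29.4%), a list with more members lower than higher, and the cytokine feedback genes with 6 of 22 (27.3%). AP-1 letters (TGANTCA) were in 5.04% of windows of genes tested (7.81% of all windows), in 9.69% for genes higher over 2-fold and 5.01% for genes lower. E-box letters were in 10.3% of windows of genes tested (7.15% of all), in 7.02% for genes higher over 2-fold and 12.8% for genes lower over 2-fold. By list, the aminoacyl-tRNA synthetases had them in 4 of 16 windows, ribosome biogenesis and ion channels in 10 of 41 each (24.4%), the list of Kruppel-like factors, nuclear receptors and clock genes and the translation factors in 8 of 33 each (24.2%) and the nuclear pore list in 9 of 41 (21.95%). High shares thus stood both in lists that mostly fell and in lists that mostly rose. CEBP-ATF letters were in 2.30% (3.95% of all), in 3.57% for genes higher over 2-fold and 3.06% for genes lower over 2-fold. They were in 5 of 16 windows of the aminoacyl-tRNA synthetases, of which more fell than rose, and in 6 of 27 windows of the integrated stress response (22.2%), of which more rose than fell. Letters of the interferon response element (GAAA, any 2 bases, then GAAA) were in 3.299% of windows of genes tested (3.44% of all), in 5.74% for genes higher over 2-fold and in 4.46% for genes lower over 2-fold. For ETS letters (GAGGAAGT) the shares were 3.23% (3.202% of all), 2.42% and 4.74%, for PU.1 letters (GGAAGT) 30.01% (23.8% of all), 20.4% and 33.1%, and for NF-Y letters (CCAAT) 39.7% (37.4% of all), 38.1% and 46.8%, in the same order. Both strands were searched; the PU.1 letters lie within the ETS letters and can lie within NF-kB letters. A match describes letters, not a site that is bound.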

How the data were processed

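The submitters' processing notes name fastp 0.22.0 (read filtering), HISAT2 2.1.0 (alignment) and HTSeq 0.9.1 (counting); genome build and use of strand: not given in the sources used here. Read counts and FPKM values per gene were deposited by the authors. The FPKM values equal count over length and library total in all 127564 values checked and were not tested. Counts were tested with edgeR 4.0.16 (TMM scaling, robust quasi-likelihood F test, 4 residual degrees of freedom, Benjamini-Hochberg adjustment, R 4.3.3) on the 6 libraries. Where 1 of 21 symbols filled several lines, the line with most counts stood for it. The self-test on simulated counts of these 11389 genes recovered 87 of 100 genes changed 1.5-fold and 94 of 100 changed 2-fold. It made 12 false calls among 193. Few genes were changed there, equally many up and down, whereas 70.3% of genes were called in the data. The self-test therefore does not test the scaling or the false calls at such a share. Genes and lists were chosen with earlier results of these data known. Named genes were the 12 with the largest changes in each direction (adjusted p under 0.05, at least 5 CPM on average, groups apart, established symbol) and, per list, the 2 with the smallest adjusted p and the 1 with the smallest in the minority direction; genes named in an earlier text on the series were left out, and some genes that these choices name are not reported here. Symbols came from the table. Its coordinates equal the GRCm38 annotation for only 514 of 21851 genes compared and are not printed. Promoter windows came from RefSeq (GRCm38.p6). Alternatives used limma 3.58.1, DESeq2 1.42.0 and the settings in the closing section. Within groups, counts of library pairs differed by more than sampling noise (chi-square per degree of freedom of 2.57 to 9.01), so none was treated as a copy of another library. This does not show that they are separate cultures.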

Additional observations from a re-analysis of the deposited data

How the results depend on the processing

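The number of genes called stayed within 1.5 times of 8004 in all of 16 alternatives but 1: requiring a change of at least 1.2-fold (glmTreat), a stricter question by its construction, left 5287, of which 2574 were lower. The number lower over 2-fold was 294 when only genes with a mean of at least 50 counts were tested, which removes genes by its construction. Fitting all 9 libraries together called 6274 genes, DESeq2 7526 and limma-voom 7985. Scaling by library size alone called 4475 genes higher and 3557 lower. Leaving out 1 library at a time gave 7515 to 7897 calls. With the replicate number as a block, 8288 genes were called. The correlations of the deviations of libraries with the same number were 0.10, -0.03 and 0.09. For libraries with different numbers they ran from -0.11 to 0.02. Whether the numbers pair the samples cannot be told from these values. Of 215 genes checked by name, all called, 1 lost its call in an alternative that tested it (Rara, adjusted p = 0.0621 with glmTreat). None reversed, and none moved by over 1.5 times when a library was left out. These genes were chosen by their values in the main fit of the same libraries. That their calls stayed was thus largely fixed in advance and is no separate support. A gene that an alternative did not test was not checked there. Of the 94 counts of list members, 42 moved by over 1.5 times in some alternative, mostly with glmTreat; for the mRNA decay and Toll-like receptor lists, for example, 6 and 8 members were then called higher. At 12784931 to 18388959 counts, 3 counts in a library stand for 0.163 to 0.235 CPM, and genes near that level are uncertain.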

Other observations

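Further gene lists moved in both directions. Of 34 genes of antiviral PARPs, Schlafens and related effectors 21 rose and 7 fell, 4 and 0 over 2-fold, with a median log2 fold change of 0.34. Slfn4 had 325, 327 and 354 CPM in PBSDC and 875, 891 and 888 CPM in ZJDC (log2 fold change 1.40 ± 0.042, adjusted p = 1.84e-20, edgeR), with reads that may be shared among Schlafen copies, and the DNA damage enzyme Parp1 fell by 0.93. TRIM ubiquitin ligases rose in 19 of 38 and fell in 9, 6 and 0 over 2-fold (median 0.23); Trim25, which acts in RNA sensing, rose by 0.72 and the co-repressor Trim28 fell by 0.84. Rab and vesicle traffic genes rose in 27 of 55 and fell in 14 (median 0.19), with Rab11fip1 higher by 1.01 and Rab3il1 lower (-1.23). Saa3, an acute phase protein outside the rule for named genes, was chosen after its values were seen. It was counted 7, 11 and 5 times in PBSDC and 140, 68 and 125 times in ZJDC. Its PBSDC counts alone would not have met the filter of 10 counts in at least 3 libraries. Saa3 was therefore tested only because its ZJDC counts were high enough.

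Solute carriers rose in 22 of 47 and fell in 14, 8 and 0 over 2-fold (median 0.17). The nucleobase transporter Slc43a3 had 120.3, 122 and 117 CPM in PBSDC and 325, 318 and 324 CPM in ZJDC (log2 fold change 1.43 ± 0.044, adjusted p = 3.77e-20), the creatine transporter Slc6a8 and the mitochondrial iron importer Slc25a37 rose by 1.86 and 1.56 (chosen after their values were seen), and Slc7a5, which imports large neutral amino acids, fell by 0.68. Ion channels and transport ATPases rose in 24 of 47 and fell in 12 (median 0.15): the lysosomal channel Mcoln2 had 22.5, 26.6 and 26.3 CPM in PBSDC and 104, 102 and 107 CPM in ZJDC (log2 fold change 2.06 ± 0.067, adjusted p = 1.10e-19) and Itpr2 rose by 1.14. Genes of small GTPases and actin fell in 25 of 50 and rose in 14 (median -0.18), and 12 were lower when a change of at least 1.2-fold was required. Beta-actin (Actb), often used as a reference gene, had 4677, 5070.5 and 4889 CPM in PBSDC and 2472, 2611 and 2447 CPM in ZJDC (log2 fold change -0.96 ± 0.040, adjusted p = 2.32e-17), Was fell by 1.11 and Marcksl1 rose by 0.66. Wnt, Notch and Hippo genes rose in 6 of 25 and fell in 8 (median 0.10), with the receptor Fzd5 higher by 1.76 and Lrp5 lower (-0.74). The heart muscle marker Tnnt2 fell by 1.59 and held most of that list's sum in PBSDC, which was 27.3 to 32.6 CPM in PBSDC and 16.5 to 22.6 CPM in ZJDC.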
